A study of Mus musculus with 8 samples.

Results

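Wild-type phosphatidylserine synthase 1 (PSS1) was introduced into mouse bone marrow cells that were being turned into osteoclasts, and its transcript profile was set against that of the same kind of culture without it. The comparison held 4 of the 8 arrays of the study: those of the culture with PSS1-WT, sampled on days 3 and 6, and of M-CSF+RANKL on the same days, matched by day and chosen by their titles. All 4 arrays came from bone marrow cells of strain C57BL6/J cultured with 50 ng/ml of M-CSF plus 100 ng/ml of RANKL. The PSS1-WT culture was also infected, a day after the factors were added, with a retrovirus that expresses wild-type PSS1. Nothing in the labels tells whether an empty virus was given to the M-CSF+RANKL culture, what share of cells was infected, or from which species the PSS1 insert came. Virus infection and PSS1 expression therefore cannot be told apart here. The other 4 arrays, M-CSF without RANKL and PSS1-LMS (mutant PSS1 with the same factors) on days 3 and 6, serve for reference. The PSS1-LMS arrays also enter the estimate of the spread behind each limma error and p-value of the main comparison. The age and number of mice are not in the labels, and each culture and day is 1 array, so precision is limited by how few arrays there are.

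PSS1 is an enzyme of the endoplasmic reticulum that makes phosphatidylserine by exchanging the head group of phosphatidylcholine for serine; PSS2 does the same with phosphatidylethanolamine. Phosphatidylserine normally faces the cytosol, and its display on the cell surface marks dying cells for uptake and also accompanies the fusion of osteoclast precursors. M-CSF keeps monocyte and macrophage precursors alive, and RANKL turns them into multinucleated osteoclasts, which attach to bone through podosomes, acidify the space beneath them with a vacuolar proton pump and digest the matrix with cathepsin K.

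The transgene was plain in the data. Ptdss1, which encodes PSS1, had log2 signals of 9.56 on day 3 and 10.36 on day 6 in the M-CSF+RANKL culture and of 18.91 and 18.06 in the PSS1-WT culture. The cultures did not overlap on either day, and the mean difference was 8.53 ± 0.37 on the log2 scale, or 369-fold (limma standard error, 2 arrays per culture; adjusted p = 3.02e-09). The call rested on the pooled spread: without moderation of the variances (adjusted p = 0.847, limma's linear model alone), or with dim signals lifted to background (adjusted p = 0.766), it did not pass at the same difference. The probes cannot tell virus-derived from endogenous Ptdss1. Both cultures carried osteoclast transcripts. Acp5, tartrate-resistant acid phosphatase, read 19.91 and 19.92 without and 19.84 and 19.86 with the virus, against 5.14 and 6.38 in M-CSF without RANKL. Ctsk, cathepsin K, lay between 19.64 and 19.89 in the 4 arrays, and Mmp9, a matrix protease, between 19.39 and 19.63. These 3 genes sat so close to the upper limit of the table, 19.93, that a higher level could hardly have shown. Nfatc1, the transcription factor that drives the osteoclast programme, was below that limit and read 14.61 and 13.71 without and 14.74 and 13.75 with PSS1-WT (0.08 ± 0.24, adjusted p = 0.970).

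Across the 10871 genes with a measurable signal, Ptdss1 was the only gene that passed the limma test at an adjusted p of 0.05 in the comparison of PSS1-WT with M-CSF+RANKL. It was the 1 higher gene called (0.0092% of genes tested), and 0 lower genes were called (0%). Before adjustment, 216 genes were higher (1.99%) and 530 lower (4.88%) with a limma p under 0.05; with each array centred on its median these numbers were 427 and 280, and after quantile normalization 320 and 331. The balance of higher and lower genes thus depended on the scaling. At least 2-fold differences in the same direction on both days were seen for 5 genes higher (0.046%) and 8 lower (0.0736%), or 8 and 3 after centring. Single days gave many more, with 77 genes higher and 82 lower on day 3 and 126 and 300 on day 6. By any amount, 18.8% of genes were higher and 32.2% lower on both days. Centring the arrays turned this to 28.1% and 22.1%, and quantile normalization gave 25.1% and 24.5%. Across all measured genes, Ptdss1 included, the differences of the 2 days were nearly unrelated (Pearson correlation 0.066, Spearman 0.018). The same direction on both days is thus weak evidence of a repeatable difference for a single gene. The median gene differed by -0.07 on day 3 and -0.06 on day 6, whereas the array medians over measured genes were 7.85 and 7.82 without and 7.75 and 7.73 with PSS1-WT. Centring on those medians moved the median of the mean differences from -0.06 to 0.03. The median difference was 0.04 in the dimmest of 5 equal groups of genes by level and between -0.06 and -0.09 in the brighter ones. Apart from Ptdss1, the values that follow are thus descriptions of differences that did not pass the test over all genes. Counts of list members are to be read against the all-gene shares given here. Lack of overlap, 2 arrays against 2, is noted only for named genes, most of them picked for large differences. Its share over all genes was not counted, so it describes the values and does not support a difference.

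**Figure D1:**
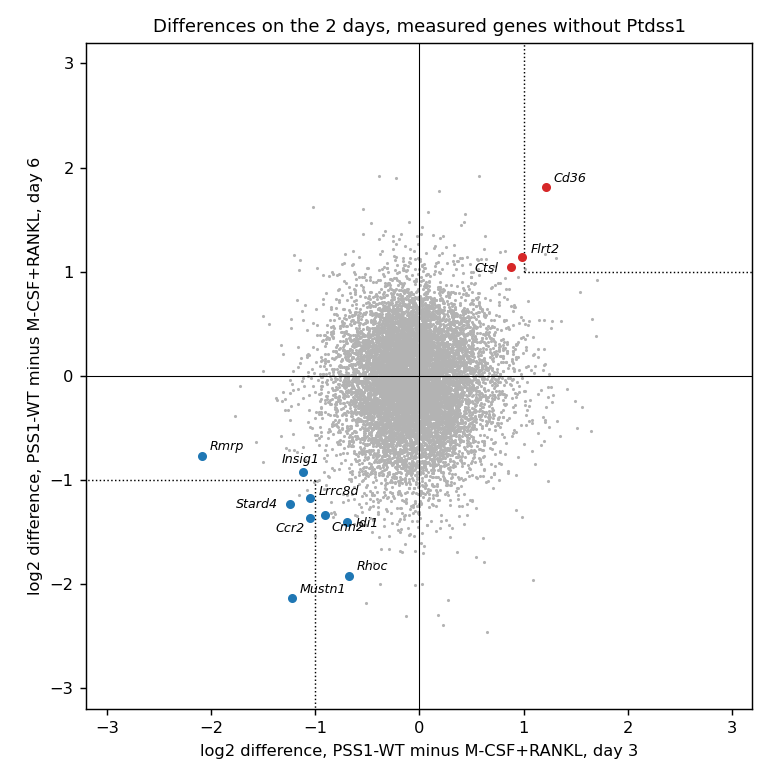
Log2 difference PSS1-WT minus M-CSF+RANKL on day 3 (horizontal) and day 6 (vertical) for each measured gene except Ptdss1, which lies far outside the axes; dotted lines enclose genes at least 2-fold higher or lower on both days, and 12 named genes are coloured. Cd36 lies in the upper right corner and Mustn1 in the lower left one, while most genes that differed on 1 day lie near 0 on the other.

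Among the enzymes of phosphatidylserine and phosphatidylethanolamine synthesis, no gene other than Ptdss1 passed. Of 11 measured members, 3 were higher and 4 lower on both days, with a median of -0.08 against -0.06 for all genes. Ptdss2, which encodes PSS2, read 8.18 and 8.20 without and 8.26 and 8.07 with PSS1-WT. These values overlapped, and the mean difference was -0.03 ± 0.24 (limma adjusted p = 0.991). Pisd, the mitochondrial enzyme that decarboxylates phosphatidylserine to phosphatidylethanolamine, read 8.48 and 9.09 without and 8.61 and 8.37 with PSS1-WT. It was level on day 3 and lower on day 6 (mean -0.29 ± 0.28). Pcyt1a, the rate-controlling enzyme of phosphatidylcholine synthesis and thus of the substrate of PSS1, read 12.16 and 11.59 without and 11.56 and 11.06 with PSS1-WT. Its values did not overlap, and the difference was -0.57 ± 0.24 (adjusted p = 0.680). Pcyt2, its counterpart in phosphatidylethanolamine synthesis, differed by -0.31 ± 0.25 and Cept1, which attaches the head group in both routes, by 0.38 ± 0.25. Of the 23 measured genes of other phospholipid and triglyceride synthesis, 12 were lower and 4 higher on both days (8 and 4 after centring), with Lpcat4, a lysophospholipid acyltransferase, at -0.66 ± 0.26 and Gpam, which starts glycerolipid synthesis, at 0.35 ± 0.26. Phospholipid breakdown genes showed little common direction, with 1 of 17 higher and 4 lower. The shares over all genes were 18.8% higher and 32.2% lower, or 28.1% and 22.1% after centring.

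Cholesterol synthesis genes were lower almost throughout the pathway. Cells read their sterol content through SCAP and INSIG proteins in the endoplasmic reticulum, which release the transcription factor SREBP2 to switch on these genes when sterol runs short. Of 16 measured members, 12 were lower and 0 higher on both days, 15 were lower on average and the median was -0.51, against 32.2% lower, 18.8% higher and -0.06 over all measured genes. After centring or quantile normalization 9 were lower and 0 higher. On single days the median was -0.21 on day 3 and -0.65 on day 6, and with dim signals lifted to a background limit of 7.13 (the highest background probe set of the 8 arrays) the mean-of-days median was -0.24 and 8 members were lower. An unadjusted limma p under 0.05 was reached by 7 members, all lower, against 4.88% of all genes lower at that p. No member passed after adjustment over all genes. The same 16 genes were all lower in M-CSF+RANKL than in M-CSF (median -1.46), a comparison that uses the same M-CSF+RANKL arrays. PSS1-WT levels were thus the lowest of these 3 cultures for most of the pathway.

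Idi1, which makes the isoprene unit dimethylallyl diphosphate, had log2 signals of 8.004 and 9.25 in M-CSF+RANKL and 7.30 and 7.85 in PSS1-WT on days 3 and 6. All values with PSS1-WT lay under both values without it, and the difference was -1.05 ± 0.28, or 2.07-fold lower (limma adjusted p = 0.460). Fdps, farnesyl diphosphate synthase, read 6.36 and 7.14 without and 6.07 and 5.60 with PSS1-WT. Most of its difference of -0.92 ± 0.29 came from day 6 (-1.54), and the cultures did not overlap. Only the day 6 value in M-CSF+RANKL lay above the background limit of 7.13 taken over all arrays, and barely so. The drop in Fdps was thus seen near background. Hmgcs1, which makes the precursor of mevalonate, read 11.50 and 11.99 without and 10.92 and 11.14 with PSS1-WT (-0.72 ± 0.25, adjusted p = 0.655). Nsdhl and Msmo1 both remove methyl groups from the sterol nucleus. Nsdhl read 11.35 and 11.92 without and 11.02 and 10.77 with PSS1-WT (-0.74 ± 0.27), and Msmo1 8.35 and 8.41 against 7.39 and 7.91 (-0.73 ± 0.26). Neither overlapped between the cultures. Lss, which closes the sterol rings, read 10.15 and 10.12 without and 9.95 and 8.99 with PSS1-WT, again mostly on day 6 (-0.67 ± 0.27). Sqle, squalene epoxidase, read 6.10 and 6.89 without and 5.59 and 6.36 with PSS1-WT. Its day 3 signal with PSS1-WT was within background, so the level was at least 1.26-fold lower. Mvk, mevalonate kinase, lay within background and was the only member with a mean above 0 (0.05 ± 0.25).

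The sterol-sensing genes were split. Insig1, an SREBP2 target whose product holds SREBP back, read 9.54 and 9.81 without and 8.42 and 8.88 with PSS1-WT. The cultures did not overlap and differed by -1.02 ± 0.25, or 2.03-fold (adjusted p = 0.398). Stard4, a small carrier that moves cholesterol between membranes, read 6.89 and 6.66 without and 5.65 and 5.43 with PSS1-WT. Both PSS1-WT signals lay within the background of their arrays, so the level was at least 2.03-fold lower; the measured difference was -1.24 ± 0.25 (adjusted p = 0.340). All 4 values also lay under the background limit of 7.13 taken over all arrays, so raising signals to that limit left no difference to measure. In M-CSF, Stard4 read 9.45 and 9.08. Srebf2, which encodes SREBP2, differed by -0.33 ± 0.24, while Scap (-0.06), Insig2 (-0.05) and Mbtps1 (-0.03), a protease that cuts SREBP, were near 0. The lysosomal cholesterol exporters Npc1 and Npc2 were at -0.42 ± 0.26 and -0.45 ± 0.25. The lipoprotein receptors Lrp1 (0.32 ± 0.25) and Vldlr (0.37 ± 0.28) had higher values on both days, but Vldlr lay within background in M-CSF+RANKL and was at least 1.01-fold higher. Of 13 members, 2 were higher and 8 lower on both days, or 3 and 4 after centring and 1 and 6 with signals raised to the background limit. The shares over all genes were 18.8% higher and 32.2% lower, or 28.1% and 22.1% after centring.

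**Figure D2:**
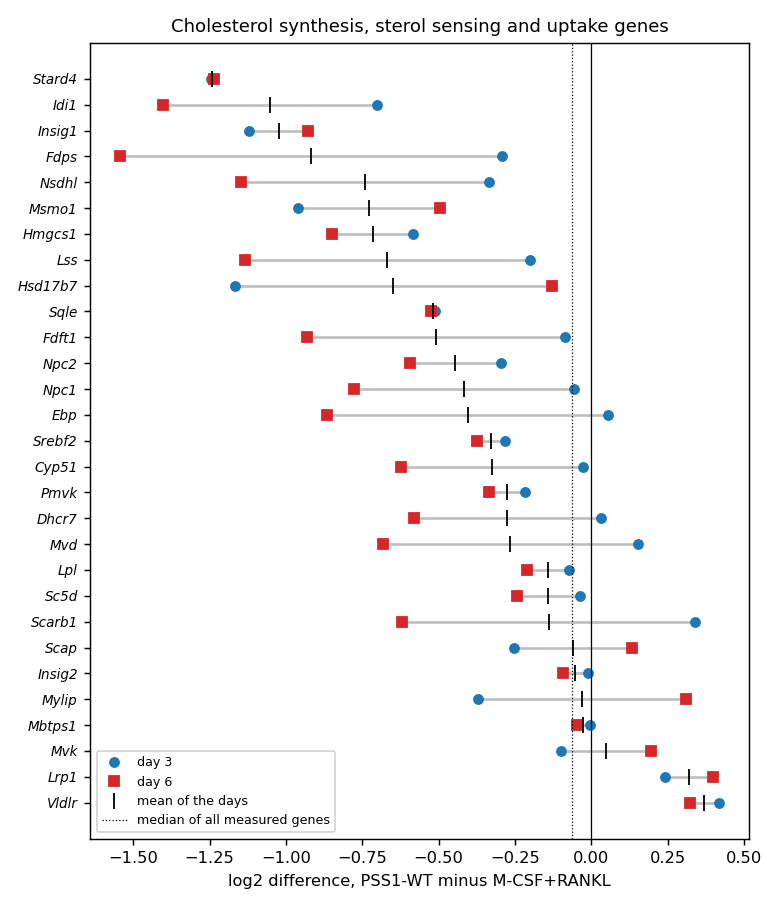
Log2 difference PSS1-WT minus M-CSF+RANKL of each measured member of the cholesterol synthesis and sterol sensing lists, with day 3 as circles, day 6 as squares and their mean as a tick; the dotted line is the median of all measured genes, -0.06. Stard4, Idi1 and Insig1 lie at means under -1, and Lrp1 and Vldlr are the genes above 0 on both days.

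The sequence before the transcription start was examined for the cholesterol synthesis genes because they were lower together. RefSeq upstream sequences (GRCm38.p6) matched 13 of the 16 measured members; Fdps, Fdft1 and Sqle had no entry. Within 250 bases upstream, on either strand, the letters CCAAT, the core bound by the factor NF-Y that works with SREBP2, were found in all 13 genes, against 40.6% of the 8887 measured genes with a sequence and 37.5% of all 27025 genes. At least 2 copies were found in 9 of the 13 (69.2%), against 15.3% of measured genes. CCAAT was also found in 6 of 9 sterol sensing genes (66.7%), 10 of 16 tricarboxylic acid cycle genes (62.5%), 13 of 27 podosome and actin genes (48.1%) and 5 of 11 proton pump genes (45.5%) with a sequence. A sterol regulatory element spelled TCACNCCAC was found in 1 gene, Hmgcs1 (1.16% of measured genes have it), and the E-box CACGTG in 3 (23.1% against 9.76%). None of these motifs overlaps another in the sequences shown. Sequences of the 180 bases before the start are shown for the matched members with the lowest means, 5′ to 3′ on the strand of the gene, with CCAAT, its reverse complement ATTGG and the sterol element in capitals.
Idi1 (chr13:8885426-8885605, plus strand): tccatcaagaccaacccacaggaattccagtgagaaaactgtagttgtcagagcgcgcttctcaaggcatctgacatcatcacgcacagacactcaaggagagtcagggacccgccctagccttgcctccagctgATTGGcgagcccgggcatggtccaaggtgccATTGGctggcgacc
Nsdhl (chrX:72918341-72918520, plus strand): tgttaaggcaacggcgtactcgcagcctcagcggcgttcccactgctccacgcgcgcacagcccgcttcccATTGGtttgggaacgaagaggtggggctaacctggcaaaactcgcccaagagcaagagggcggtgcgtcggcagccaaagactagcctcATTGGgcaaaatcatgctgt
Msmo1 (chr8:64733579-64733758, minus strand): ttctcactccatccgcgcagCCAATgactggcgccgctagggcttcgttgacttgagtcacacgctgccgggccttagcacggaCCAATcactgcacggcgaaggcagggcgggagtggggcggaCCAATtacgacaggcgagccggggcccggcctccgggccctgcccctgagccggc
Hmgcs1 (chr13:119690171-119690350, plus strand): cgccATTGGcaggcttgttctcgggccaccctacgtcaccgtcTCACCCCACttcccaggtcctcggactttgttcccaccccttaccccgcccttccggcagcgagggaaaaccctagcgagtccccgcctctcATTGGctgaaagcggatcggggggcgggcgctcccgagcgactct
Idi1 and Nsdhl have 2 CCAAT copies each in this stretch, all on the opposite strand, and Msmo1 has 3 on its own strand. Hmgcs1 carries its sterol element at position -137 to -129, between CCAAT copies at -176 and -45 (first bases, counted back from the start). A match of letters is a description of the sequence and does not show binding. Mvk, whose mean was above 0, also carries CCAAT.

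Fatty acid synthesis genes, which the related factor SREBP1 controls, were more often lower than higher. Of 17 measured members, 9 were lower and 1 higher on both days (8 and 3 after centring, 8 and 1 after quantile normalization). The shares over all genes were 32.2% lower and 18.8% higher, or 22.1% and 28.1% after centring. The list median was -0.23, or 0.00 with signals raised to the background limit. In the arrays compared, 10 members lay at or under the background limit of 7.13. Mid1ip1, which promotes the polymerisation of acetyl-CoA carboxylase, read 11.57 and 11.14 without and 11.10 and 9.95 with PSS1-WT (-0.83 ± 0.26, adjusted p = 0.631). Elovl5, a fatty acid elongase, read 11.91 and 11.75 without and 11.66 and 10.60 with PSS1-WT. Both were lower mainly on day 6. Fasn, fatty acid synthase, differed by -0.53 ± 0.28 with overlapping values, and Scd1, stearoyl-CoA desaturase, lay within background. Cholesterol efflux and LXR target genes did not share a direction, with 1 of 10 higher and 2 lower on both days; Apoe, the main lipid carrier of macrophages, differed by -0.15 ± 0.26.

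Cd36 was the gene with the largest measurable difference upward after Ptdss1. It encodes a scavenger receptor that takes up fatty acids and oxidised lipids and binds phosphatidylserine. Its log2 signal was 7.84 on day 3 and 10.03 on day 6 in M-CSF+RANKL and 9.05 and 11.84 in PSS1-WT. The PSS1-WT array was higher on each day, but the cultures overlapped because Cd36 was higher on day 6 in both. The mean difference was 1.52 ± 0.30, or 2.86-fold (limma adjusted p = 0.340). It passed with only the 4 arrays compared, where 1 spread is shared by all genes (adjusted p = 0.00074), and without M-CSF+RANKL day 3 (2.01 ± 0.34, adjusted p = 0.0013), but not under the other planned settings that keep all 6 arrays, where the adjusted p reached 1.0. M-CSF cells, with 16.43 and 17.77, had far more Cd36 than either. Other receptors for phosphatidylserine and debris, and the genes that act with them, went both ways. Cd300lf, a lipid receptor that recognises phosphatidylserine, read 7.42 and 8.09 without and 8.15 and 8.96 with PSS1-WT, with no overlap (0.80 ± 0.24, adjusted p = 0.631). Stab1, stabilin-1, read 5.06 and 5.88 without and 6.20 and 6.14 with PSS1-WT, at least 1.17-fold higher. Mertk, a kinase receptor for phosphatidylserine bridging proteins, had a higher mean (0.59 ± 0.26) with every value within background. Among the lower members, Mfge8, a bridging protein between phosphatidylserine and integrins, read 12.09 and 12.50 without and 11.69 and 11.74 with PSS1-WT (-0.58 ± 0.25), and Rac2, a GTPase of engulfment, 16.18 and 16.19 against 15.94 and 15.31 (-0.56 ± 0.26). These were the 2 members lower at an unadjusted limma p under 0.05, against 4 higher. In all, 11 of 24 measured members of this list were higher and 5 lower on both days (11 and 3 after centring). The shares over all genes were 18.8% and 32.2%, or 28.1% and 22.1% after centring. The list median was 0.16 (0.00 with signals raised to the background limit), and 22 of the 24 were lower in M-CSF+RANKL than in M-CSF.

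Flippases and scramblases, which set the side of the membrane that phosphatidylserine faces, showed 9 of 20 higher and 4 lower on both days. After centring the counts were 9 and 3, and the median as deposited was 0.16. The shares over all genes were 18.8% higher and 32.2% lower, or 28.1% and 22.1% after centring. Plscr1 (0.66 ± 0.29) and Plscr4 (0.52 ± 0.27), of the scramblase family, had the largest means and every value within background, and with signals raised to the background limit the median was 0.00. Atp8b4, a P4-ATPase, was above background and read 8.20 and 7.98 without and 8.25 and 8.85 with PSS1-WT. Plscr3 read 6.41 and 6.72 without and 6.01 and 6.23 with PSS1-WT, the other direction. The matrix and protease list had 8 of 15 higher and 2 lower (9 and 1 after centring), to be read against the same shares. Its median was 0.32, or 0.17 with signals raised to the background limit. Mmp12, macrophage elastase, read 13.27 and 16.59 without and 13.91 and 17.71 with PSS1-WT (0.88 ± 0.26, adjusted p = 0.610). Tgfbi, a secreted adhesion protein, read 10.93 and 10.45 without and 11.74 and 10.97 with PSS1-WT (0.67 ± 0.25). Both were higher on each day, and the cultures did not overlap for Tgfbi.

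Genes of podosomes, the sealing zone and actin filaments were more often lower than higher. Of 32 measured members, 25 were lower and 1 higher on both days, and the median was -0.29; after centring 20 were lower and 2 higher, and after quantile normalization 18 and 1. An unadjusted limma p under 0.05 was reached by 6 lower members and 1 higher, and none passed over all genes. Over all genes, 4.88% were lower and 1.99% higher at that p. On both days, 32.2% of all genes were lower and 18.8% higher, or 22.1% and 28.1% after centring. Of the 32, 19 were higher in M-CSF+RANKL than in M-CSF.

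Mustn1 had the smallest p after Ptdss1. It encodes a small nuclear protein of muscle and bone progenitors. It was named with its difference in this comparison already known, yet is counted with the actin list and among its 6 lower members. Its value is therefore no separate support for the direction of that list. Its log2 signal was 9.51 and 8.69 in M-CSF+RANKL and 8.28 and 6.55 in PSS1-WT, against 4.75 and 4.14 in M-CSF. Both PSS1-WT values lay under both M-CSF+RANKL values, and the difference was -1.68 ± 0.28, or 3.21-fold lower (limma adjusted p = 0.100). It passed with a stricter filter on dim genes (adjusted p = 0.019), an intensity trend (0.0205) or only the 4 arrays compared (4.35e-05), but not after centring (0.239) or quantile normalization (0.531). Cnn2, calponin 2, which binds actin, read 8.38 and 8.95 without and 7.47 and 7.62 with PSS1-WT. The cultures did not overlap, and the difference was -1.12 ± 0.28, or 2.18-fold (adjusted p = 0.400). Vcl, vinculin, which links integrin contacts to actin in the podosome ring, read 11.75 and 11.47 without and 11.05 and 10.73 with PSS1-WT (-0.72 ± 0.26, adjusted p = 0.655). Tpm2, a tropomyosin that runs along actin filaments, differed by -0.73 ± 0.26 near background, at least 1.35-fold. Gsn, gelsolin, which cuts actin filaments, was at -0.69, and Ptk2b, the podosome kinase Pyk2, at -0.64. Was and Wipf1, which drive branched actin in podosome cores, differed by -0.50 and -0.45. The exception was Acta2, smooth muscle actin, a stromal marker, which read 6.74 and 11.33 without and 7.94 and 11.44 with PSS1-WT (0.66 ± 0.28).

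**Figure D3:**
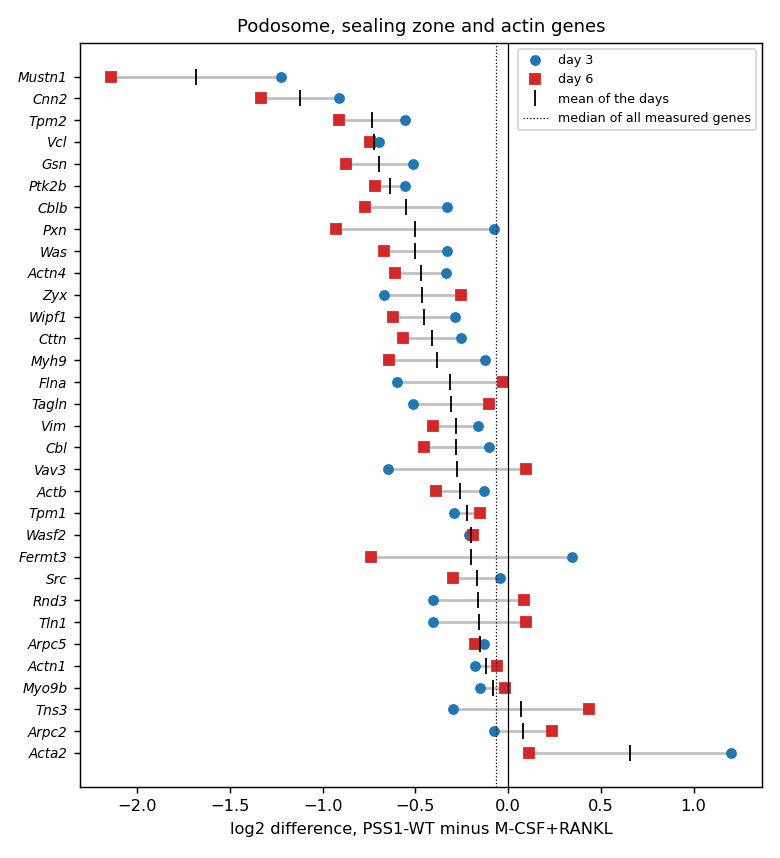
Log2 difference PSS1-WT minus M-CSF+RANKL of each measured member of the podosome, sealing zone and actin list, with day 3 as circles, day 6 as squares and their mean as a tick; the dotted line is the median of all measured genes. Mustn1 has the lowest mean, -1.68, 25 genes lie under 0 on both days, and Acta2 is the gene above 0 on both.

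Rhoc, a gene of actin organisation and cell movement that is not on that list, read 8.77 and 10.44 without and 8.09 and 8.52 with PSS1-WT. All PSS1-WT values were lower, by 0.67 on day 3 and 1.92 on day 6, and the mean difference was -1.30 ± 0.30 (adjusted p = 0.398). Integrin subunits were mixed, with 4 of 14 lower (28.6%) and 1 higher (7.14%) on both days, against 32.2% and 18.8% of all genes. Itga4 read 10.89 and 10.91 without and 10.56 and 10.49 with PSS1-WT (-0.38 ± 0.24), and Itga6, of the laminin receptors, differed by 0.46 ± 0.27 with overlapping values.

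The resorption machinery of the osteoclast was slightly lower. In the resorption list, 13 of 18 measured members were lower and 1 higher on both days, with a median of -0.27. After centring only 6 were lower and 2 higher. Over all genes, 32.2% were lower and 18.8% higher on both days, or 22.1% and 28.1% after centring. Car2, carbonic anhydrase 2, which supplies protons, read 15.93 and 15.94 without and 15.22 and 15.53 with PSS1-WT (-0.56 ± 0.27). Slc4a2, the bicarbonate exchanger that balances acid secretion, read 11.05 and 11.40 without and 10.81 and 10.41 with PSS1-WT (-0.61 ± 0.26). The list also counts Akr1c18, a steroid-metabolising reductase rather than a part of the resorption machinery. Akr1c18 had the lowest mean of the list, and read 17.41 and 17.66 without and 16.77 and 17.03 with PSS1-WT (-0.63 ± 0.25, limma adjusted p = 0.679). The list was written with earlier results of these data known, so this value is no separate support for its direction. The cultures did not overlap for these 3 genes. They were picked as among the largest same-direction differences of the list, so this adds no support. Oscar, an osteoclast receptor for collagen, differed by -0.70 on day 3 and -0.07 on day 6. Of the vacuolar proton pump, 12 of 17 subunits and accessory proteins were lower and 0 higher on both days (11 and 0 after centring), with a median of -0.27. Atp6v1e1, of the cytosolic sector, read 14.32 and 14.57 without and 13.79 and 14.05 with PSS1-WT (-0.52 ± 0.24, adjusted p = 0.712), and Atp6v1g1, of the same sector, 11.23 and 11.10 against 10.68 and 10.76. Atp6v0d2, the membrane-sector subunit typical of osteoclasts, was at -0.26 on day 3 and -0.28 on day 6. Fusion genes had 11 of 20 lower and 1 higher (7 and 1 after centring); Dcstamp, the fusion protein of osteoclast precursors, read 16.38 and 17.01 without and 16.28 and 16.61 with PSS1-WT (-0.25 ± 0.25), and Ocstamp, its relative, differed by -0.28 ± 0.27.

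Energy metabolism followed the same direction by small amounts. Of 17 measured genes of the tricarboxylic acid cycle, 12 were lower and 1 higher on both days (10 and 1 after centring), with a median of -0.25. All measured genes gave 32.2% lower and 18.8% higher (22.1% and 28.1% after centring), with a median of -0.06. Dlst, the core of the oxoglutarate dehydrogenase complex, read 9.95 and 9.16 without and 9.13 and 8.85 with PSS1-WT (-0.57 ± 0.25). Of 27 genes of mitochondrial respiration, 14 were lower and 0 higher (11 and 0 after centring); Uqcrfs1, the iron-sulfur protein of complex III, read 12.37 and 11.65 without and 11.55 and 11.20 with PSS1-WT (-0.64 ± 0.25, adjusted p = 0.679). The cultures did not overlap for either gene. Both were picked as among the largest same-direction differences of their lists, so this adds no support. All members of the resorption, tricarboxylic acid and respiration lists, and 16 of 17 of the proton pump, were higher in M-CSF+RANKL than in M-CSF, with medians of 9.87, 2.99, 2.51 and 3.06. That comparison uses the same M-CSF+RANKL arrays, so its values are not independent of those above. After centring, the medians with PSS1-WT were -0.18 for resorption, -0.16 for the tricarboxylic acid cycle, -0.13 for respiration and -0.18 for the proton pump. In a bulk culture, fewer cells of a type and less RNA per cell cannot be told apart.

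**Figure D4:**
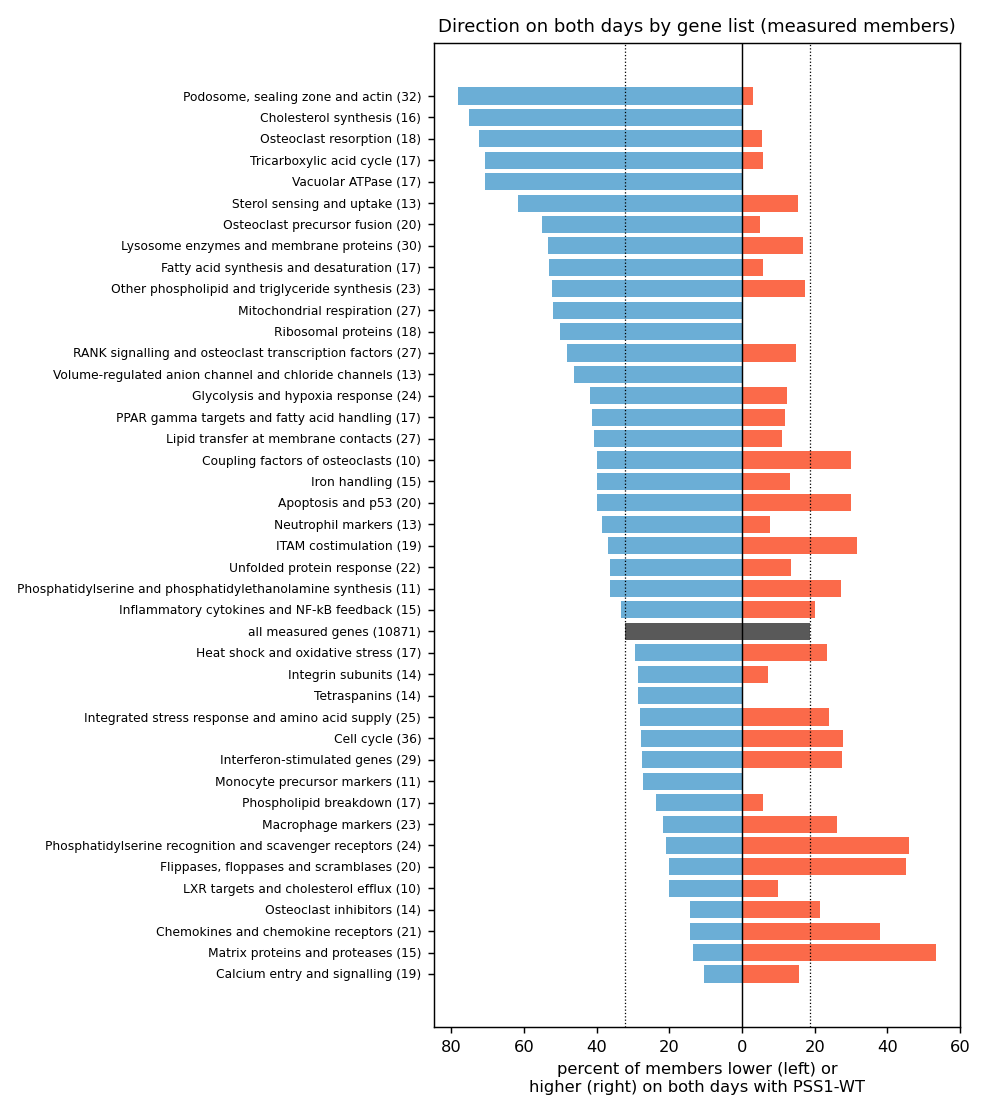
Share of measured members (number in brackets) that were lower, to the left, or higher, to the right, on both days in PSS1-WT than in M-CSF+RANKL, for each list with at least 10 measured members; the dark bar and dotted lines give all measured genes. Podosome and actin genes have the highest share lower, 78.1%, and the matrix and protease list the highest share higher, 53.3%, against 32.2% and 18.8% over all genes.

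Several single genes outside these groups were apart on both days. Gnpda1, an enzyme that feeds glucosamine back into glycolysis, read 12.38 and 12.41 without and 11.36 and 11.39 with PSS1-WT. The 4 values form 2 tight pairs, with a difference of -1.02 ± 0.25 (adjusted p = 0.398). Lrrc8d, a subunit of the volume-regulated anion channel, read 9.23 and 8.40 without and 8.18 and 7.22 with PSS1-WT (-1.12 ± 0.25, 2.17-fold, adjusted p = 0.364). Frmd4a, a scaffold of cell junctions, read 7.48 and 7.67 without and 6.40 and 6.58 with PSS1-WT, against 3.73 and 3.55 in M-CSF (-1.09 ± 0.25). Both PSS1-WT values were under the background limit of 7.13, and with signals raised to it the difference was -0.45 ± 0.13. Cd200, a surface ligand that restrains myeloid cells and takes part in precursor fusion, read 8.33 and 7.89 without and 7.48 and 6.58 with PSS1-WT (-1.08 ± 0.25). None of these 4 overlapped, but they were picked for large differences or small p, so this adds no support. Rmrp, the RNA of the mitochondrial RNA processing ribonuclease, read 12.20 and 10.49 without and 10.11 and 9.73 with PSS1-WT; its difference of -1.43 ± 0.30 was -2.09 on day 3 and -0.77 on day 6. Ccr2, the receptor that guides monocytes, read 6.28 and 5.32 without and 5.23 and 3.95 with PSS1-WT. Only the day 3 value in M-CSF+RANKL lay above the background of its array. On day 6 both cultures were within background, and the level was at least 1.03-fold lower. On the higher side, Flrt2, a cell adhesion protein, read 10.90 and 11.41 without and 11.88 and 12.55 with PSS1-WT, with no overlap (1.06 ± 0.25, 2.09-fold, adjusted p = 0.398). Ctsl, the lysosomal protease cathepsin L, read 11.99 and 13.38 without and 12.87 and 14.43 with PSS1-WT (0.96 ± 0.24, adjusted p = 0.419), and Ctss, cathepsin S, 12.05 and 12.22 without and 12.42 and 13.31 with it (0.74 ± 0.26). The remaining genes with 2-fold differences on both days, Il1rapl2, Samt4 and Gm7697 (higher) and Olfr1199 and Speer4e (lower), lay within background in all 4 arrays.

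**Figure D5:**
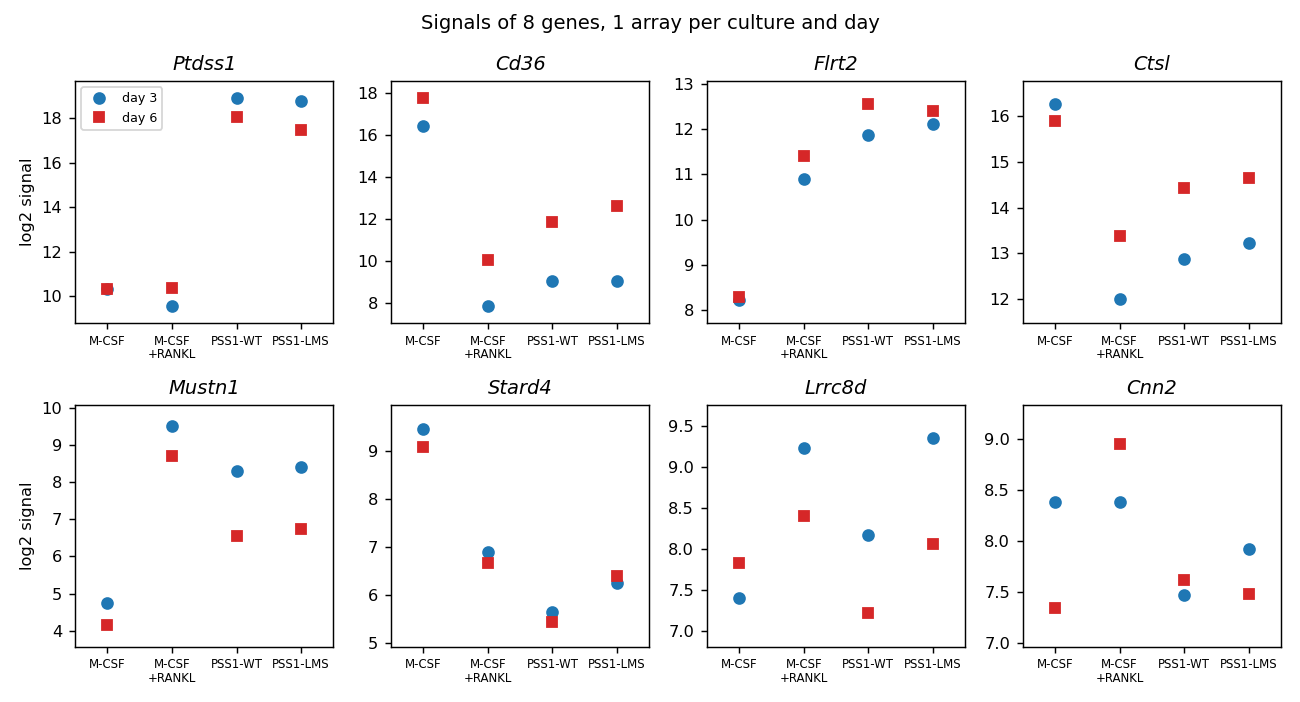
Log2 signal of 8 genes in the 4 cultures named under each panel, 1 array per point, with day 3 as circles and day 6 as squares; each panel has its own vertical axis. Ptdss1 lies between 17.50 and 18.91 in both PSS1 cultures and between 9.56 and 10.36 in the others, and Lrrc8d is lower in PSS1-WT than in the other RANKL cultures on each day.

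Stress, cell cycle and interferon genes did not share a direction with PSS1-WT. Of 36 cell cycle genes, 10 were higher and 10 lower on both days, with a median of 0.03; Cdca8, of the chromosomal passenger complex, read 6.36 and 6.68 without and 6.72 and 7.54 with PSS1-WT. Of 29 interferon-stimulated genes, 8 were higher and 8 lower, and 24 of the 29 lay under that background limit. In the unfolded protein response, 3 of 22 were higher and 8 lower (6 and 5 after centring). The shares over all genes were 18.8% higher and 32.2% lower, or 28.1% and 22.1% after centring. Canx, calnexin, a chaperone of the membrane where PSS1 sits, read 15.38 and 14.92 without and 15.68 and 15.72 with PSS1-WT (0.55 ± 0.25, adjusted p = 0.712), while Calr, calreticulin, its soluble relative, differed by -0.47 ± 0.27. Atf4, the transcription factor of the integrated stress response, read 12.79 and 12.68 without and 12.24 and 11.92 with PSS1-WT, with no overlap (-0.65 ± 0.26, adjusted p = 0.679), whereas its partner Ddit3 differed by 0.38 ± 0.24.

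Markers of other cell types were measured alongside. Of 23 measured macrophage markers, 6 were higher and 5 lower on both days, against 18.8% and 32.2% of all genes. Their summed linear signal, in units of 1000, was 375 and 442 without and 460 and 388 with PSS1-WT, against 1745 and 2713 in M-CSF. Clec4d, a macrophage lectin, read 11.97 and 12.47 without and 12.73 and 13.37 with PSS1-WT, while Cd14 (-0.69 ± 0.25) and C1qb (-0.69 ± 0.29) were lower. Neutrophil markers, 13 measured, were summed at 53.1 and 0.5 without and 45.6 and 0.4 with PSS1-WT in the same unit, so they were high on day 3 in both cultures. Among them Ngp read 14.12 and 5.91 without and 13.79 and 5.41 with PSS1-WT. Of the defining markers, 2 of 11 for B cells, 1 of 15 for T and NK cells, 3 of 12 for red cells and 2 of 9 for endothelium were measurable. The part of these cells in the differences above was not tested.

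The PSS1-LMS culture carries mutant PSS1 in the same setting. It shares the M-CSF+RANKL arrays as its control, so its differences from that culture are given beside those of PSS1-WT and are not independent of them. The difference between the inserts is the direct comparison of the PSS1 cultures. Against M-CSF+RANKL, PSS1-LMS had 17 genes higher (0.156%) and 2 lower (0.0184%) by limma. Directly against PSS1-WT it had 0 called genes in either direction (0%), with 532 genes higher and 241 lower at an unadjusted p under 0.05. Ptdss1 itself differed by -0.34 ± 0.37 between them (adjusted p = 0.882). Mustn1 read 8.39 and 6.73 in PSS1-LMS, close to PSS1-WT (0.15 ± 0.28 apart, adjusted p = 0.944), and it differed from M-CSF+RANKL by -1.54 with PSS1-LMS (adjusted p = 0.035). Cd36 read 9.05 and 12.62 in PSS1-LMS (0.39 ± 0.30 from PSS1-WT), and its difference from M-CSF+RANKL was 1.90 (adjusted p = 0.033). The cholesterol synthesis median was -0.40 for PSS1-LMS and -0.51 for PSS1-WT, with 10 of 16 members lower on both days; for the actin list the medians were -0.20 and -0.29.

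Some genes that were low with PSS1-WT had higher values in PSS1-LMS. They were picked here for low PSS1-WT values, so higher values in another culture are partly expected from that choice alone. Lrrc8d read 9.35 and 8.07 in PSS1-LMS, 1.01 ± 0.25 above PSS1-WT (limma adjusted p = 0.303). Gnpda1 read 12.34 and 12.14, 0.86 ± 0.25 above PSS1-WT (adjusted p = 0.475). Stard4 read 6.25 and 6.40, 0.79 ± 0.25 above PSS1-WT (adjusted p = 0.583). Frmd4a read 7.06 and 7.53, 0.81 ± 0.25 above it, and Insig1 8.84 and 9.56, 0.55 ± 0.25 above it. Stard4 and Insig1 in PSS1-LMS still lay under M-CSF+RANKL, by -0.45 ± 0.25 and -0.48 ± 0.25, and Frmd4a by -0.28 ± 0.25. None of these direct differences passed, so a difference between the inserts was not shown for them. The smallest adjusted p of the direct comparison, 0.079, belonged to 2 genes singled out after their values were seen. Akap13, a kinase anchor, read 7.69 and 7.95 in M-CSF+RANKL, 8.18 and 8.65 in PSS1-WT and 6.69 and 6.92 in PSS1-LMS. Cd81, a tetraspanin, read 10.62 and 12.30 in PSS1-WT, near its values of 10.60 and 12.45 without PSS1, and 11.97 and 14.05 in PSS1-LMS. Macrophage markers differed between the PSS1 cultures by a median of 0.63, higher in PSS1-LMS, with C1qb at 1.53 ± 0.29 (adjusted p = 0.186).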

How the data were processed

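The authors deposited 1 table of log2 signals for 28846 features on 8 Affymetrix arrays; that the scale is log2 was read from the values, and the probe summary and normalization are not given in the sources used here. Per the labels' protocols, 500 ng of total RNA per array was turned into biotinylated cDNA. The values were used as deposited. A symbol was attached to 19572 of 22142 transcript clusters (19505 genes; the brightest cluster was used for 55 genes with several), and a gene was measured when its highest value reached 4.86, the median of the table. Background is the brightest of 23 background probe sets of each array.

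Differences were fitted with limma 3.58.1 (R 4.3.3; lmFit, eBayes) on the 6 arrays with RANKL, with culture and day as terms (2 residual and 13.3 prior degrees of freedom) and Benjamini-Hochberg adjustment. The error is the change of culture differences between days, and no separate cultures or animals were profiled, so p-values measure only that spread, which may be technical. In simulated data the PSS1-WT test recovered 46% of 2-fold and 100% of 4-fold changes among 10871 genes (12 of 185 calls were unchanged genes). The PSS1-LMS minus PSS1-WT test recovered 38% and 100%. The simulation changed 50 genes each by 2-, 4-, 8- and 16-fold, and so many true changes ease the adjusted threshold. With 1 gene called in the measured data the threshold is stricter, so 2-fold changes would be recovered less often than these shares.

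The comparison, the 48 gene lists and the named genes were chosen with earlier results of these data known, so no list was tested as a set. Named genes were Ptdss1, Cd36, Stard4 and Mustn1, genes 2-fold different on both days, the 10 smallest p in each direction, selected enzyme and osteoclast genes, all sterol genes, and the 4 largest same-sign differences of each list; not all are printed.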

Additional observations from a re-analysis of the deposited data

Results flagged for a closer look

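Ptdss2 and Pisd moved in opposite directions on the 2 days, and the difference between days was not tested. Ptdss2 differed by 0.076 on day 3 and -0.14 on day 6, and Pisd by 0.13 and -0.72. Clusters without a gene symbol were outside the gene comparisons; of 1269 measured, 2 had a 2-fold or greater difference upward on both days with PSS1-WT and 2 downward, and of these 1 and 0 were above background.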

How the results depend on the processing

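The count of genes passing depended on how the spread was estimated. In place of 1 higher and 0 lower, 7 and 11 passed with only the 4 arrays compared, where 1 spread is shared by all genes; 0 higher passed without moderation or with signals raised to the background limit, and 1 lower (Mustn1) with a stricter filter on dim genes or an intensity trend. Leaving out 1 array gave 1 to 12 higher and 2 to 49 lower: 12 and 49 without M-CSF+RANKL day 3, 6 and 17 without PSS1-WT day 3, 1 and 2 without M-CSF+RANKL day 6, 3 and 3 without PSS1-WT day 6, and 7 and 11 when an array of PSS1-LMS was left out. The lone array of a culture is then assumed to vary like the others. PSS1-LMS minus PSS1-WT gave 32 higher and 4 lower with its 4 arrays alone. Genes 2-fold higher on both days numbered 8 after centring and 2 with the stricter filter or raised signals, and those lower 3 after centring or with raised signals. Of 31 genes tested, 27 kept their direction under each alternative that gave a value. Ptdss2 turned to 0.062 with centring and 0.073 with quantile normalization, and Acp5 to 0.029 with centring. Leaving out 1 array moved Ptdss2 between -0.13 and 0.072, Pisd between -0.76 and 0.17 and Ocstamp between -0.58 and 0.023. Mustn1 ranged from -2.12 to -1.24 and Cd36 from 1.02 to 2.01. Genes equal to the raised limit on both sides gave no value there. The fit already matches the cultures by day through its day term. Beyond that, no paired analysis was possible because all arrays carry the same replicate number, so a block by number cannot be formed.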
